A study of Homo sapiens with 4 samples.

Results

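PMP22, EMP1, EMP2 and EMP3 are the 4 genes of the small PMP22/EMP family, and they were examined here for their response to depletion of talin-1 in Hs578T cells. They were taken by name from the 60721 genes of the count table, after Ensembl identifiers were matched to symbols, and all 4 passed the filter on low counts that kept 16137 genes. PMP22 was selected on its lower count after TLN1 knockdown in these same libraries, so its values are given as a description without a p value. EMP1, EMP2 and EMP3 were taken as its relatives, and the question was whether they offset the lower level of PMP22. Hs578T is an established line from a human breast carcinoma. All cultures received GFP. A non-targeting RNA (SCR) was added to the controls and siRNA against TLN1 (siTLN1) to the others, each at 1.6 µM, and polyadenylated RNA was collected after 48 h. Each group held 2 libraries, called a and b, described as biological replicates of 1 line. P values therefore rest on the spread between these libraries.

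The family encodes small glycoproteins with 4 membrane-spanning segments that belong to the claudin-like superfamily. PMP22, also known as growth-arrest-specific gene 3, is best known from compact myelin of peripheral nerve, where altered gene dosage causes inherited demyelinating neuropathy, and it is also made by many cells that form no myelin. The epithelial membrane proteins EMP1, EMP2 and EMP3 are broadly expressed relatives. EMP2 in particular has been tied to integrin surface levels and to focal adhesion kinase, and talin-1, the product of the targeted gene, links integrins to actin.

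The sequences shown here are the sites of a 7-base word, GACAACA, in PMP22 and in the siRNA's target transcript. The word was taken up because lower fold changes had already been linked to it in these counts, so its distribution is given as a description. In the GENCODE 29 transcript of each gene with the longest coding sequence, the sense strand of PMP22 held 1 copy in its 3′ UTR of 1140 bases, starting at base 659 after the stop codon. That of TLN1 held 1 copy, in its coding sequence, starting at base 5430. The PMP22 site lies at chr17:15230245-15230272 and the TLN1 site at chr9:35706030-35706057 (GRCh38, minus strand for both), and capitals mark the word.
PMP22: aatgagaaatcagtGACAACAagtcttt
TLN1: gccgtagaggacctGACAACAaccctca
The word was found in 5 of 8 coding transcripts of PMP22. None of the 5 coding transcripts of EMP1, the 2 of EMP2 or the 3 of EMP3 held it, although the 3′ UTRs of EMP1 and EMP2 were longer, at 5248 and 4483 bases. The last 6 bases of the word, ACAACA, occurred 4 times in the 3′ UTR of EMP1, 4 times in that of EMP2 and 2 times in that of PMP22, and the first 6, GACAAC, occurred 1 time each in PMP22 and EMP1 and not in EMP2. The 3′ UTR of EMP3, with 83 bases, held neither. Among 17337 genes with a 3′ UTR of at least 100 bases, 7.23% held the word there, and among 2081 whose 3′ UTR length was within 20% of that of PMP22 the share was 5.38%. The sequence of the siRNA is not given in the sources used here, and the part of this word in the PMP22 value was not tested.

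The libraries held 31854322 and 34794346 counts in SCR and 36987264 and 46353297 in siTLN1. TLN1 stood at 868 and 874 CPM (counts scaled to library size, with TMM factors) in SCR libraries a and b and at 51.9 and 44.8 CPM in siTLN1, or 5.55% of its SCR mean. The labels call the cells epithelial. EPCAM, CDH1, KRT19, ESRP1 and GRHL2 were below 1 CPM in every library, GRHL2 at 0 counts, and KRT18 and KRT8 carried nearly all of the summed level of the 7 epithelial markers (122 to 152 CPM in SCR and 131 to 142 in siTLN1). The 5 mesenchymal markers VIM, FN1, ZEB1, CDH2 and COL1A1 summed to 40814 to 42573 CPM in SCR and 41409 to 48068 in siTLN1, most of it from FN1 and COL1A1. Among these 5, CDH2 (N-cadherin) fell, from 569 and 535 CPM in SCR to 303 and 293 CPM in siTLN1, with a log2 fold change of −0.89 (adjusted p 2.4e-05 by edgeR), while the other 4 did not pass the test. Of the Schwann cell markers given here, SOX10 was at 0 in all libraries and S100B stayed below 1 CPM, while PRX reached 3.68 to 4.59 CPM.

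PMP22 (ENSG00000109099.15; GRCh38, chromosome 17, 15229777 to 15265326, minus strand) was the one gene of the family that differed strongly between the groups. It had 136 CPM in SCR library a and 135 CPM in SCR library b, against 51.1 CPM in siTLN1 library a and 57.2 CPM in siTLN1 library b. The groups did not overlap, as for 48.4% of all tested genes, and both siTLN1 libraries lay below both SCR libraries by far more than the replicates differed. PMP22 was chosen for this difference, so the separation describes it and is no separate support. Raw counts were 4318 and 4702 in SCR and 1861 and 2689 in siTLN1, so counting error is small beside the difference. The SCR mean was 135 ± 0.587 CPM (SD, n = 2). The siTLN1 mean was 54.2 ± 4.31 CPM (SD, n = 2), or 40.0% of that. The fit gave a log2 fold change of −1.32 (standard error 0.10). Of all genes tested, 0.409% had a lower log2 fold change. The counting did not use strand, and 8.68% of the exon bases of PMP22 also lie in exons of an uncharacterised gene on the opposite strand, which had 15 counts over all 4 libraries.

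EMP1 (ENSG00000134531.10; chromosome 12, 13196723 to 13219941, plus strand) had 171 CPM and 176 CPM in SCR libraries a and b, against 153 CPM and 158 CPM in siTLN1. The direction was that of PMP22, and the groups did not overlap, but the siTLN1 mean was still 89.5% of the SCR mean. The log2 fold change of −0.16 (standard error 0.09, 95% interval −0.35 to 0.03) did not pass the quasi-likelihood test of edgeR, adjusted over all genes tested by Benjamini-Hochberg (adjusted p 0.354). The interval allows a level from 0.785 to 1.02 times that of SCR. EMP1 shares no exon base with another gene.

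EMP2 (ENSG00000213853.10; chromosome 16, 10528422 to 10580632, minus strand) lay slightly higher after knockdown, at 51.6 CPM and 51.2 CPM in siTLN1 libraries a and b, against 48.0 CPM and 43.8 CPM in SCR. The groups did not overlap, although the gap between them was smaller than the gap between the SCR libraries. Its log2 fold change was 0.16 (standard error 0.10, 95% interval −0.04 to 0.37; adjusted p 0.388 by the same edgeR test). The upper end of the interval corresponds to 1.29 times the SCR level. An opposite-strand gene with 0 counts shares 6.16% of its exon bases.

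EMP3 (ENSG00000142227.11; chromosome 19, 48321509 to 48330553, plus strand) had 133 CPM and 151 CPM in SCR libraries a and b and 146 CPM and 160 CPM in siTLN1. The groups overlapped, since SCR library b lay above siTLN1 library a. Its log2 fold change was 0.11 (standard error 0.10, 95% interval −0.10 to 0.31; adjusted p 0.605 by the same edgeR test), and the interval reaches 1.24 times the SCR level. The value moved with the library left out, at 0.02 without SCR library a and 0.20 without SCR library b. ODAD1 on the opposite strand, with 9 counts in all, shares 13.2% of the exon bases of EMP3.

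**Figure D1:**
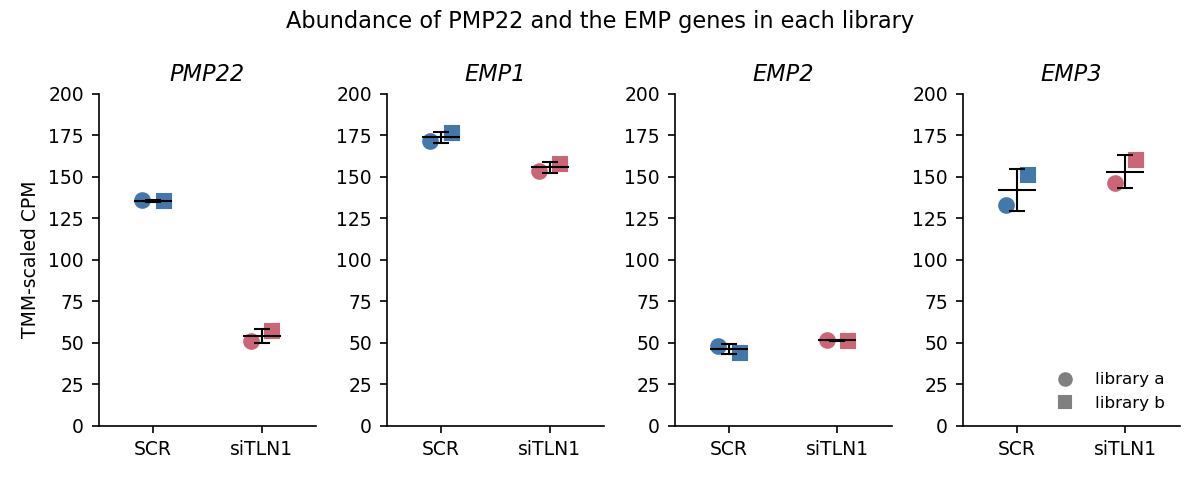
TMM-scaled CPM of PMP22, EMP1, EMP2 and EMP3 in each library (circles, library a; squares, library b), with group means as horizontal lines and SDs over 2 libraries as error bars. The PMP22 libraries sit at 135 to 136 CPM in SCR and 51.1 to 57.2 CPM in siTLN1, while the siTLN1 means of the EMP genes lie between 89.5% and 112% of their SCR means.

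Read against all genes, the EMP fold changes were of ordinary size. Of all genes tested, 25.3% had a lower log2 fold change than EMP1, 75.8% than EMP2 and 68.2% than EMP3. Of the 16137 genes tested, 6.07% passed an adjusted p of 0.05 (980 genes, but 324 without siTLN1 library a). The share was 3.77% for lower and 2.3% for higher genes. None of EMP1, EMP2 and EMP3 passed this edgeR test, 0 of the 3 had an unadjusted p under 0.05, and 0 passed with DESeq2 or limma-voom. Libraries of the groups did not overlap for 48.4% of all tested genes, so the missing overlap of EMP1 and EMP2 is common. The size of the log2 fold change was larger than that of EMP1 for 49.9% of tested genes, than that of EMP2 for 49.3% and than that of EMP3 for 63.6%. The median log2 fold change was −0.03 over the 4 members and 0.11 over the 3 EMP genes, beside 0.0033 over all tested genes.

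**Figure D2:**
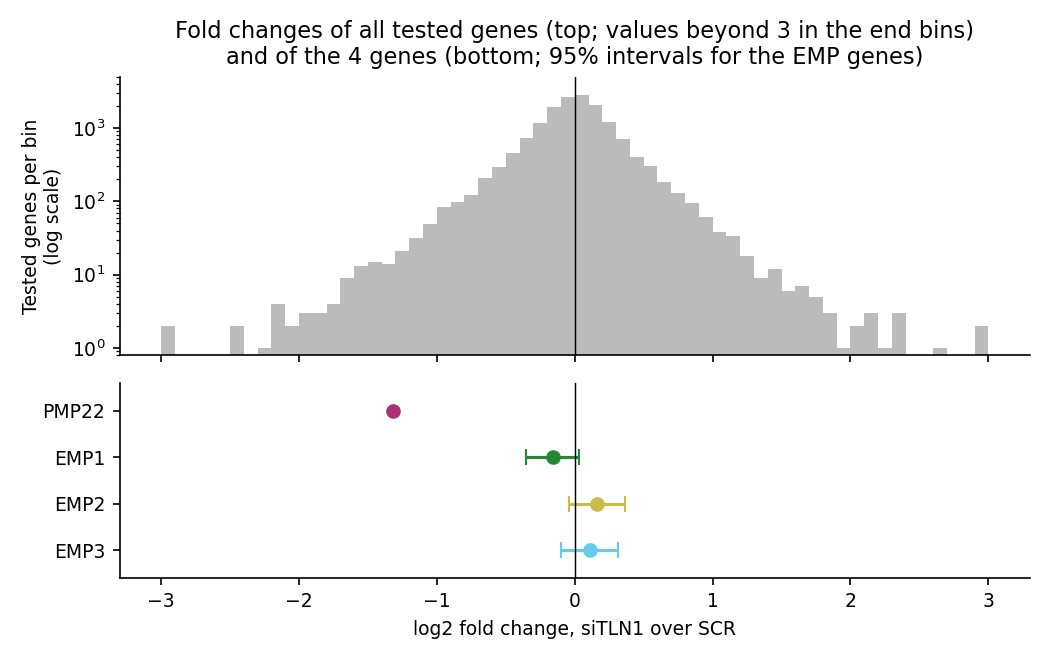
Distribution of log2 fold changes (siTLN1 over SCR) of the 16137 tested genes on a logarithmic count axis (top), and the fitted values of the 4 family members (bottom), with 95% intervals for the EMP genes. PMP22 lies at −1.32 in the lower tail, and the intervals of EMP1, EMP2 and EMP3 all include 0.

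Levels can be compared between the genes only per length. As CPM per kilobase of annotated exon, the SCR means were 86.3 ± 7.63 for EMP3, 42.4 ± 0.184 for PMP22, 22.2 ± 0.442 for EMP1 and 5.31 ± 0.345 for EMP2 (SD, n = 2). The order of all 4 was clear of the spread between libraries. After knockdown the level of PMP22 was 17.0 ± 1.35 (SD, n = 2) and that of EMP1 19.8 ± 0.390 (SD, n = 2), so these neighbours changed places on this scale, while EMP3 stayed highest at 93.0 ± 5.90 and EMP2 lowest at 5.94 ± 0.0315 (SD, n = 2). With the length of 1 transcript per gene the SCR order was the same, but PMP22 (27.5 and 30.7 in siTLN1 libraries a and b) stayed above EMP1 (25.9 and 26.6) after knockdown. Within each library, the ratio of PMP22 to EMP1 per kilobase of exon was 1.95 and 1.88 in SCR and 0.819 and 0.891 in siTLN1. The ratio of PMP22 to EMP3 was 0.526 and 0.461 in SCR and 0.180 and 0.185 in siTLN1, and that of PMP22 to EMP2 was 7.67 and 8.35 against 2.69 and 3.03. All 3 ratios separated the groups in the same direction, as the PMP22 value in each of them does.

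The summed level of the family sets the relatives beside PMP22. Per kilobase of exon, the 4 genes summed to 151 and 162 in SCR libraries a and b and to 130 and 141 in siTLN1. Both siTLN1 sums lay below both SCR sums, and the siTLN1 mean was 86.9% of the SCR mean. PMP22 made up 28.2% and 26.2% of the sum in SCR against 12.3% and 12.7% in siTLN1. Its own mean level differed by −25.5 between the groups, while the sum of EMP1, EMP2 and EMP3 went from 113.8 ± 7.73 to 118.8 ± 6.26 (SD, n = 2), a difference of 5.00. That difference was smaller than the SD in either group, so no offset was detectable with 2 libraries per group taken as unpaired. These SDs would not be the measure if the libraries were paired. The difference was made up of 6.69 from EMP3, 0.629 from EMP2 and −2.32 from EMP1, and it equals 19.6% of the size of the PMP22 difference. By library, the EMP sum was 108 and 119 in SCR libraries a and b and 114 and 123 in siTLN1. It was higher in siTLN1 at each letter. No label ties equal letters to a shared preparation, so whether the libraries are paired is not known. The difference between the group means moved with the library left out. Without SCR library a it was −0.464, and without siTLN1 library b 0.572, while leaving out SCR library b gave 10.5 and leaving out siTLN1 library a gave 9.43. As a share of the PMP22 difference these values ran from −1.83% to 40.9%.

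The difference in the EMP sum also depended on the scale. With the length of 1 transcript per gene, a choice made after seeing the data, the sum of the EMP genes was 200.2 ± 14.3 in SCR and 210.8 ± 11.6 in siTLN1 (SD, n = 2), a difference equal to 24.2% of that of PMP22 (0.927% to 47.1% with 1 library left out). In CPM without any division by length the same sum was 361.6 ± 13.0 in SCR and 359.8 ± 12.5 in siTLN1 (SD, n = 2), a difference of −1.72, which has the sign of the PMP22 difference and lay between −10.9 and 7.5 with 1 library left out. On none of these 3 scales did the EMP sum differ by more than its SD between libraries. The sum of all 4 genes was 86.9%, 87.9% and 83.3% of its SCR level on the exon, transcript and CPM scales. RNA levels alone were measured, and protein levels of the family were not analysed here.

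**Figure D3:**
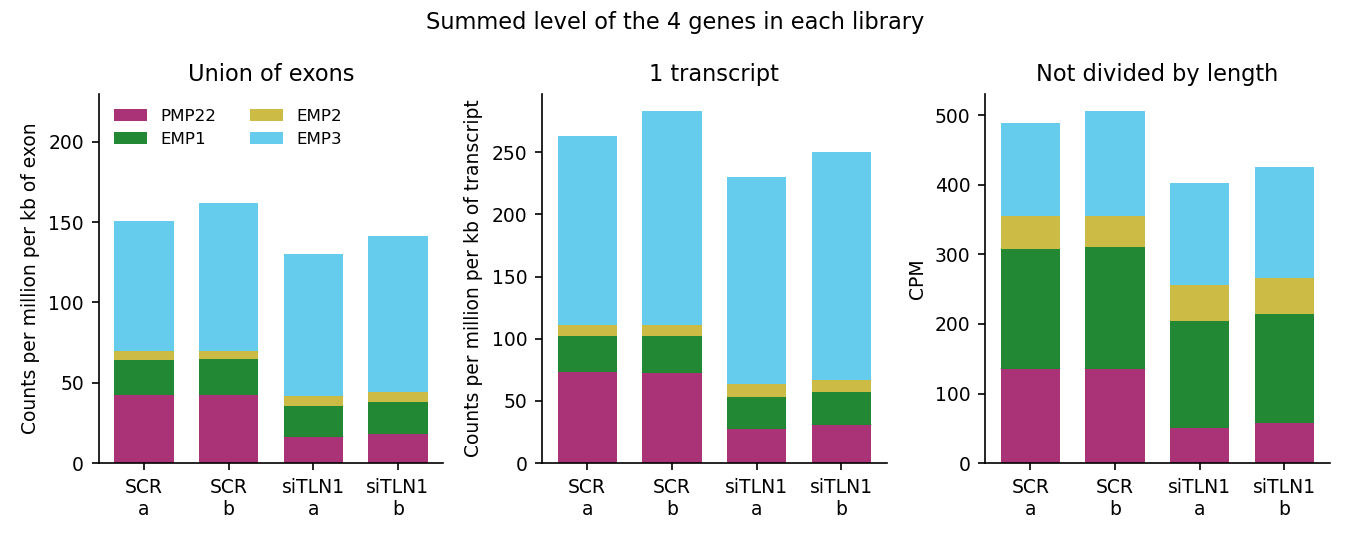
Stacked levels of PMP22, EMP1, EMP2 and EMP3 in each library, as CPM per kilobase of all annotated exon (left), per kilobase of 1 transcript (middle) and as CPM (right). The lowest segment, PMP22, shrinks most in siTLN1. The EMP1 segment is also lower in both siTLN1 libraries on each scale, by less, while the EMP2 and EMP3 segments are higher on average. EMP1, EMP2 and EMP3 together differ by less than the SD between libraries.

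The coding sequences of the family members are alike but not close to identical. Aligned pairs of coding sequences agreed at 65.5% (PMP22 and EMP1) to 69.1% (PMP22 and EMP2) of bases. The longest run of bases shared by any transcripts of a pair was 24, between PMP22 and EMP3, and it was 12 to 20 for the other pairs.

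The remaining claudin-like superfamily was read from a list of 49 genes, which holds claudins, the AMPA receptor and calcium channel gamma subunits, LHFPL genes and PERP. Of these, 17 were tested, and 35 stayed below 1 CPM in every library. In the edgeR test, 2 of the 17 rose and none fell, where 2.3% of all tested genes rose and 3.77% fell. The median log2 fold change was 0.12. CACNG7, an auxiliary subunit of AMPA receptors, had 2.77 and 2.50 CPM in SCR libraries a and b and 4.89 and 5.58 CPM in siTLN1, a log2 fold change of 0.997 (standard error 0.17, adjusted p 0.00225). CLDN11, a claudin of central myelin and testis, had 2.20 and 2.55 CPM in SCR and 4.70 and 3.75 CPM in siTLN1, a log2 fold change of 0.81 (standard error 0.19, adjusted p 0.0183). The call of CLDN11 was lost without siTLN1 library a (adjusted p 0.208, the highest in a range of 9.82e-05 to 0.208 over the alternatives), and 18.3% of its exon bases are shared with a same-strand gene that had 0 counts. Both genes were scarce beside the family. The more abundant members PERP (226 and 218 CPM in SCR, 260 and 256 CPM in siTLN1) and LHFPL2 (133 and 119 CPM in SCR, 134 and 135 CPM in siTLN1) did not pass the test, with adjusted p of 0.185 and 0.652.

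Genes for proteins that bind PMP22 or EMPs, or that handle PMP22 in the secretory pathway, formed a list of 17, of which 13 were tested. In the edgeR test 1 rose and 1 fell, where 2.3% of all tested genes rose and 3.77% fell, and the median log2 fold change was 0.03. CAV1, the main protein of caveolae and a protein tied to EMP2, had 1526 and 1471 CPM in SCR and 1145 and 1138 CPM in siTLN1, a log2 fold change of −0.39 (standard error 0.10, adjusted p 0.0270). PTK2, which encodes focal adhesion kinase, had 171 and 163 CPM in SCR and 207 and 211 CPM in siTLN1, a log2 fold change of 0.32 (standard error 0.09, adjusted p 0.0433). The groups did not overlap for either gene, as for 48.4% of all tested genes. Both calls were lost when any 1 library was left out, with adjusted p from 0.113 to 0.166 for CAV1 and from 0.0836 to 0.229 for PTK2, and that of PTK2 also when low counts were not filtered (adjusted p 0.0684). Over all alternatives the adjusted p ran from 8.36e-07 to 0.166 for CAV1 and from 1.64e-05 to 0.229 for PTK2. Calnexin (CANX), UGGT1 and RER1, which retain or refold PMP22 in the early secretory pathway, had log2 fold changes of −0.04, −0.06 and 0.04 with overlapping groups. Of the α6β4 integrin that binds PMP22, ITGA6 had a log2 fold change of 0.03, and ITGB4 stayed below 1 CPM.

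Of 13 transcription factors and cofactors linked to PMP22 in other cells, 10 were tested, and 1 passed the edgeR test, which 6.07% of all tested genes did. TEAD4, a DNA-binding partner of YAP and TAZ, fell from 23.8 and 25.4 CPM in SCR to 12.4 and 14.5 CPM in siTLN1, with a log2 fold change of −0.87 (standard error 0.12, adjusted p 0.000211). Its groups were well apart. The other TEAD genes did not pass, with log2 fold changes of 0.23 for TEAD1, −0.01 for TEAD2 and 0.14 for TEAD3, and neither did YAP1 (0.11) or WWTR1 (0.15), the gene of TAZ. EGR2, which drives PMP22 in Schwann cells, had 1.57 to 2.06 CPM over the libraries and a log2 fold change of 0.11. Over the 10 genes the median was 0.11. Which of these factors act on PMP22 in Hs578T cells was not tested.

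Among 8 growth-arrest-specific genes, the group in which PMP22 was first named, 6 were tested. With edgeR 0 passed the adjusted threshold and 3 (GAS6, GAS2L1 and GAS5) had an unadjusted p under 0.05, as did 19.8% of all tested genes, and 0 passed with DESeq2 or limma-voom. GAS2L1, a linker of actin and microtubules and the most abundant of them per length, had 81.1 and 93.1 CPM in SCR and 73.1 and 75.4 CPM in siTLN1, a log2 fold change of −0.23 (adjusted p 0.195). The median over the 6 was −0.14, with 5 of them below 0, as were 49.4% of all tested genes. Of the 5, GAS8 (−0.0024) and GAS2L3 (−0.05) lay close to 0. GAS5, a noncoding RNA that accumulates in arrested cells, lay above 0 at 0.25.

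Of 19 genes of peripheral myelin and inherited demyelinating neuropathy, 13 were tested, with 1 higher and 1 lower by the edgeR test, beside 2.3% higher and 3.77% lower over all tested genes, and a median log2 fold change of 0.02. SBF2, a myotubularin-related protein, fell from 71.2 and 59.8 CPM to 45.7 and 42.6 CPM, a log2 fold change of −0.57 (standard error 0.11, adjusted p 0.00356). Opposite-strand genes share 9.72% of its exon bases and a same-strand gene with 0 counts shares 6.24%. Its value moved from −0.44 without SCR library a to −0.69 without SCR library b. The 3′ UTR of SBF2 holds 1 copy of GACAACA. Of all genes called lower with a 3′ UTR of at least 100 bases, 29.4% held the word there. CAV1 and TEAD4, the other genes of the lists called lower, held 0 copies in the 3′ UTR and in the coding sequence. FGD4, an exchange factor for CDC42, had 49.6 and 42.8 CPM in SCR and 71.2 and 55.3 CPM in siTLN1, a log2 fold change of 0.45 (standard error 0.12, adjusted p 0.0483). That call was lost with no filter (adjusted p 0.0643), with limma-voom (0.0553), with limma-trend on the deposited values (0.0536), in the absence of SCR library b (0.0930) and in that of siTLN1 library a (0.469, log2 fold change 0.26). Over all alternatives its adjusted p ran from 6.57e-08 to 0.469. LITAF, which like PMP22 is a neuropathy gene, did not pass, at −0.10. The myelin genes GJB1, MAG and PMP2 had 0 counts.

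**Figure D4:**
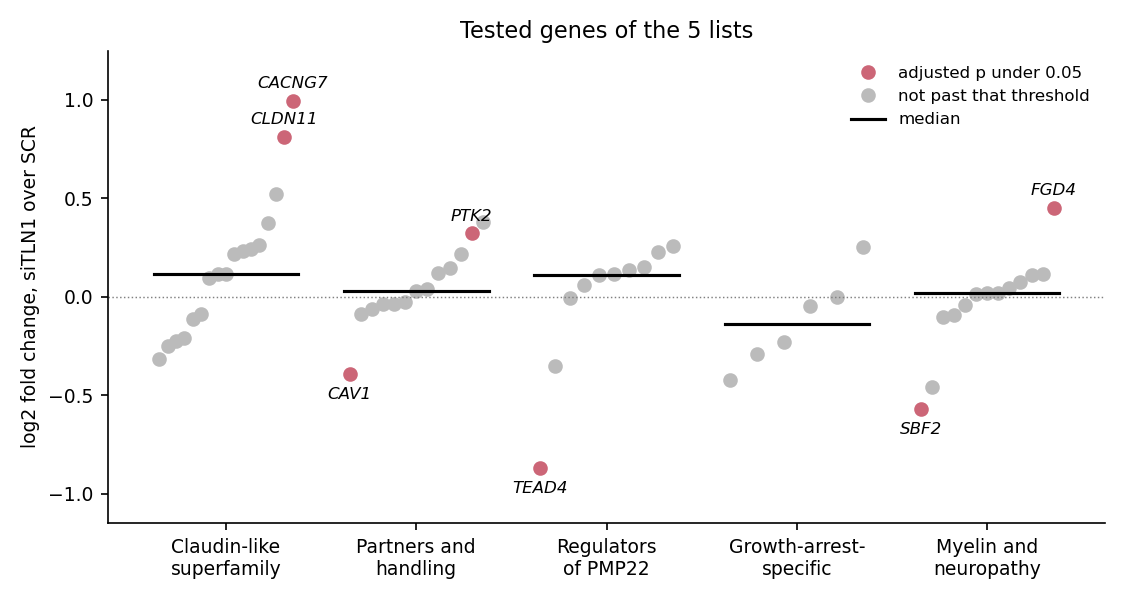
Log2 fold changes (siTLN1 over SCR) of the tested genes in 5 lists related to the family, with the median of each list as a horizontal line. Colored points, each named, passed an adjusted p of 0.05 in edgeR's test, from 0 of 6 growth-arrest-specific genes to 2 of 13 genes in the partner list and in the myelin list.

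The genes whose levels ran most like those of PMP22 were sought among genes at a mean of at least 5 CPM, by the root mean square distance between log2 CPM profiles centred on their means over the 4 libraries. They were ACTG1 (gamma-actin; distance 0.0469), DHRS7B (a peroxisomal reductase; 0.0871), CXCL8 (interleukin-8; 0.0912), SEC23A (a COPII coat subunit; 0.0969) and MRAP2 (a melanocortin receptor accessory protein; 0.101), against a median distance of 0.666 over all genes compared. This search picks genes by the same difference that chose PMP22, so their log2 fold changes, from −1.53 for DHRS7B to −1.20 for SEC23A, follow from it. Reads of ACTG1 could be shared with near-identical actin copies, which leaves its level uncertain. The word GACAACA lies in the 3′ UTR of ACTG1, DHRS7B and SEC23A, with 1 copy each, and in neither the 3′ UTR nor the coding sequence of CXCL8 and MRAP2. Among tested genes other than TLN1 with a 3′ UTR of at least 100 bases, 7.88% of all and 29.4% of those called lower held it there. These neighbours were picked for a fall like that of PMP22, and the word for its link to lower fold changes in these counts. Their copies are therefore no separate evidence of that link. The same search for the EMP genes returned IDH1, MPC2 and COPB2 for EMP1, CEBPZ, ALG11 and CENPU for EMP2, and ZNF622, DECR1 and MFSD4B for EMP3, at distances of 0.00146 to 0.0107. The median distances over all genes compared were 0.125 for EMP1, 0.133 for EMP2 and 0.137 for EMP3. None of these 9 profiles passed the edgeR test (adjusted p from 0.324 to 0.768). That follows from their likeness to the EMP genes, which did not pass.

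The word was then counted over the tested genes other than TLN1 whose 3′ UTR had 100 bases or more, where genes that hold it had the lower median. The median log2 fold change was −0.10 for 945 genes with it in the 3′ UTR and 0.01 for 11052 genes without it. Among genes with a 3′ UTR of about the length of that of PMP22, the medians were −0.24 for 88 genes with the word and 0.01 for 1413 without it, and 26 of the 88 were called lower and none higher, against 50 lower and 32 higher of the 1413. The 88 include PMP22, which was chosen for its lower level, and 25 of the 87 other genes were called lower. Of 545 genes called lower in this set, 29.4% held the word, against 6.15% of 309 called higher and 7.88% of all. PMP22 counts among those with the word, and EMP1 and EMP2 among those without it. The 3′ UTR of EMP3 was too short for this set. The word was taken up for a link to lower fold changes in these same counts. The lower medians and the shares therefore restate that link, with PMP22 or without it. The genes in these counts are not independent replicates, and no test was made.

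**Figure D5:**
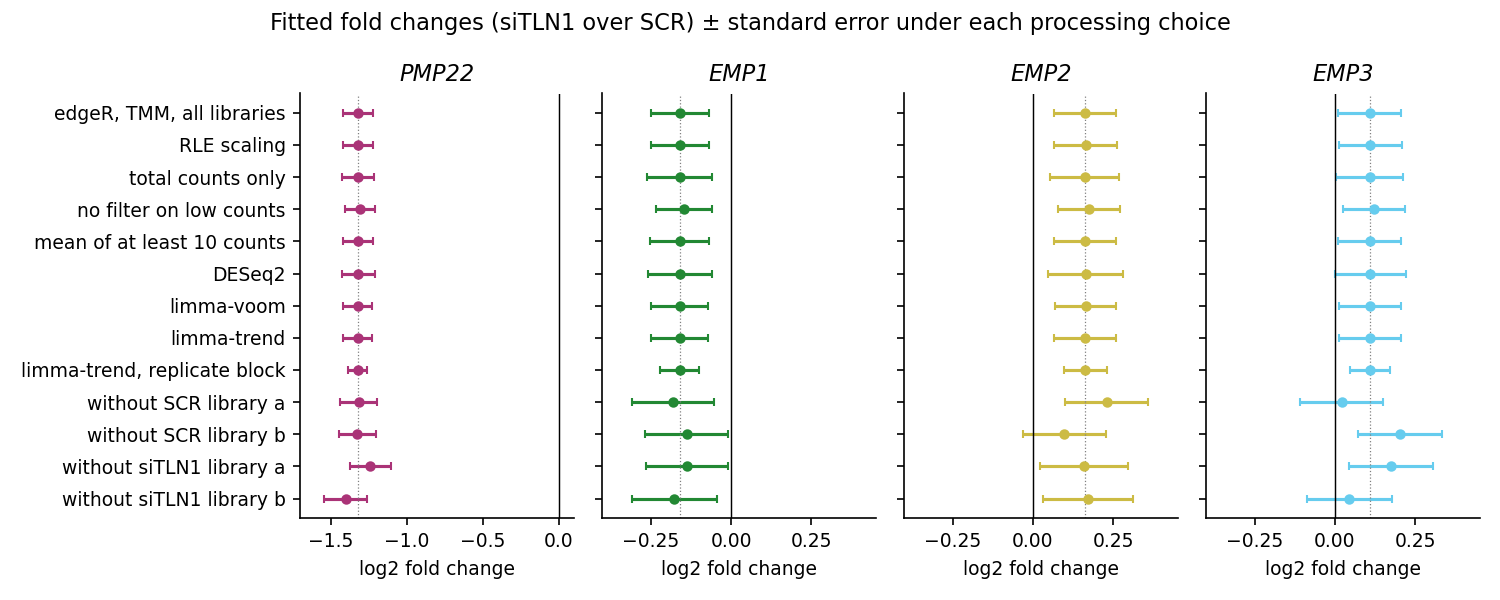
Fitted log2 fold changes (siTLN1 over SCR) of the 4 family members with standard errors under each processing choice, with the value from all libraries as a dotted line. PMP22 stays between −1.40 and −1.24, and each EMP gene keeps its sign in every row, EMP3 coming closest to 0 at 0.02 without SCR library a.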

How the data were processed

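RNA of 2 SCR and 2 siTLN1 samples was sequenced from stranded mRNA libraries. The authors deposited raw gene counts, which featureCounts 2.0.0 produced from read pairs without strand or multi-mapping options on GENCODE 33 (GRCh38), per the file headers. STAR 2.7.9a is named in the submitters' processing notes. They also deposited log2 CPM values for 16137 genes, and the table of counts gives exon lengths. Count columns name the group only, and a and b stand for a number that recurs in both groups. No column of sample values was left unmapped.

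Counts were filtered with filterByExpr (minimum count 10, minimum total 15), scaled by TMM and tested with edgeR 4.0.16 (R 4.3.3; glmQLFit, robust, and glmQLFTest), with Benjamini-Hochberg adjustment over 16137 genes and a threshold of 0.05. Intervals are 95% intervals from that fit. The tested genes held 99.9% of counts, and the biological coefficient of variation was 0.0805. With 2 libraries per group an exact permutation test cannot go below p = 0.333. Simulated data with 200 genes changed 2-fold among 15832 genes gave 198 recovered and 10 false calls. The changed genes were drawn from the more abundant ones, and every gene was given the same variation. Changes as small as those of the EMP genes were not simulated, so the power to find them is not known from it.

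Alternatives were RLE scaling, total counts, no filter, a mean of 10 counts, DESeq2 1.42.0, limma-voom and limma-trend (limma 3.58.1), a replicate block, and each library left out. Named genes are TLN1, the family, up to 4 called genes per list with a mean of at least 1 CPM (otherwise the most abundant per length), genes sharing exon bases with the family, and the nearest profiles (5 for PMP22, 3 for each EMP gene, log2 of CPM plus 0.5). Others are named as background to a list and were chosen after their values were seen. Members and lists were chosen with earlier results of these data known. Coding and UTR sequences come from GENCODE 29 (GRCh38), a different release from that of the counts. Some genes of the marker and myelin lists are not reported here by name.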

Additional observations from a re-analysis of the deposited data

How the results depend on the processing

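PMP22 kept its direction under every alternative run, with log2 fold changes from −1.32 to −1.31 with all libraries and from −1.40 to −1.24 when 1 library was left out. The ranges with 1 library left out were −0.18 to −0.14 for EMP1, 0.10 to 0.23 for EMP2 and 0.02 to 0.20 for EMP3. A fit that leaves out a library has 1 arm with a single sample, which is assumed to vary like the other group. Of 36 comparisons of the EMP genes with an alternative, 35 kept direction and side of the threshold. The exception was EMP1 with the replicate number as a block (limma-trend on the deposited log2 CPM), where the log2 fold change of −0.16 had an adjusted p of 0.0480, in a range of 0.0480 to 0.743 over its alternatives. With the same block GAS2L1 (adjusted p 0.00504) and IDH1 (0.0388), which did not pass the edgeR test, also passed. The block raised the count of changed genes from 980 to 3645. No label ties equal replicate numbers to a shared preparation, and for that reason the tests do not pair samples by number. The differences between replicates of the 2 groups correlated across genes at 0.19. The value was 0.54 for genes at 5 CPM or more, which include the 4 family genes. This correlation is no ground for leaving out the pairing, and whether equal numbers share a preparation was not tested. With 1 library left out the count ran from 324 to 1100. It ran from 663 to 1253 under the other alternatives. The summed level of EMP1, EMP2 and EMP3 was 99.5% to 105% of SCR under other scales and scalings and 99.6% to 110% with 1 library left out, all chosen after seeing the data. The summed level of the 4 genes was 83.3% to 87.9% of SCR under other scales, and 83.5% to 90.3% with 1 library left out. At counts of 1526 to 7512 per library for the 4 genes, the 2 libraries per group limit precision more than depth does.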
